A study of Sus scrofa with 28 samples.

Results

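The levels of 8 genes of the protein synthesis machinery were examined in pig ham muscle: RPSA, RPS3, RPS3A, RPS6 and FAU of the small ribosomal subunit, EEF1A1 and EEF1G of the elongation step, and TPT1, a protein named for the translational control of its message. Their members are the 19 array probes to which the platform annotation gives exactly 1 of these symbols, out of 509 probes with a single symbol and 4608 probes in all. They comprise 8 of the 211 singly named genes. RPS3 has 5 probes, TPT1 4, RPSA and EEF1A1 3 each, and RPS3A, RPS6, FAU and EEF1G 1 each. The genes were chosen by symbol, with the difference between destructured and normal pigs in these same arrays already known, so the values of that contrast are given as a description.

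The small subunit binds the messenger RNA and checks the match of codon and transfer RNA, and the elongation factors bring in the charged transfer RNAs. Messages of most ribosomal proteins and of several elongation factors begin with a run of pyrimidines, the 5′ terminal oligopyrimidine tract, and their translation is under the control of the kinase mTOR. Skeletal muscle responds to feeding and load through this pathway, and adult muscle fibres largely replace EEF1A1 by its close relative EEF1A2.

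Total RNA came from the semimembranosus, a ham muscle, of 14 pigs graded by the lightness L* of the meat. The normal group is 7 pigs of low L*, and the destructured group is 7 pigs of high L*, a pale meat defect. Breed, age and treatment are not given in the sources used here, and no treatment or genotype separates the groups in the labels. Each pig had 1 array that carried the whole probe set in duplicate, as a left and as a right part, and was read as spot intensity after hybridisation of radioactive cDNA. Values below are log2 intensities after quantile normalization, averaged over both parts of an array, and n is 7 pigs in each group. A fold change is destructured minus normal on the log2 scale, and SE is its standard error from the fit across all probes. Each member is written as its listed gene followed by its probe number.

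The array parts of 1 pig disagree. Left and right parts correlated across all probes at 0.868 to 0.963 in 13 pigs and at 0.380 in normal replicate 3. Over the 19 members the median absolute difference between its parts was 0.92, against 0.14 to 0.53 in the other pigs. These values do not show which of its parts is at fault. Many results that rest on this pig are given also with normal replicate 3 taken from its left part only. A result without such a value may still depend on this pig. One pig number in the labels appears in both groups, for normal replicate 2 and for destructured replicate 3, and nothing says whether they are 1 animal. Probes of 1 gene also seldom moved together, as described further on, and whether the listed genes are right was not tested. Of the 17 skeletal muscle markers 12 were measured, by 137 probes, with a mean level of 1.51 to 1.67 in normal and 1.48 to 1.55 in destructured pigs. Background was not given, so presence or absence of a transcript was not judged.

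RPS3 7134 was higher in destructured muscle, and FAU 6667 and RPS3A 7373 had positive fold changes in the same direction, whereas all 3 EEF1A1 probes and all 3 RPSA probes had negative ones, except that EEF1A1 6149 and RPSA 4764 were positive without normalization (the deposited scale), EEF1A1 7801 from the right parts only, and RPSA 5662 in 13 of its 26 alternatives. Of the 19 member probes 7 had positive and 12 negative fold changes, with a median of -0.14, from -0.55 to 0.86. On the deposited scale, where the median of all probes lay at 0.21, 13 were positive and 6 negative. In the normalized data the median of all 4608 probes was -0.021, and the middle range between the quartiles ran from -0.17 to 0.14. In 10 of the 19 members the change was smaller than 0.2. One member, RPS3 7134, passed the threshold of 0.05 on the adjusted p over all probes (limma, Benjamini-Hochberg), where 0.651% of all probes passed. In no member were the groups free of overlap, where 1.28% of all probes were. With normal replicate 3 by its left part, RPS3 7134 and FAU 6667 passed, where 2.93% of all probes did, and RPS3 7134 and RPS3A 7373 had groups without overlap, where 1.61% of all probes did. RPS3 7134 stood inside the threshold at rank 12 by p, and the 2 members next in order were FAU 6667 at rank 35 and RPS3A 7373 at rank 204, outside it, with 30 probes passing in all.

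**Figure D1:**
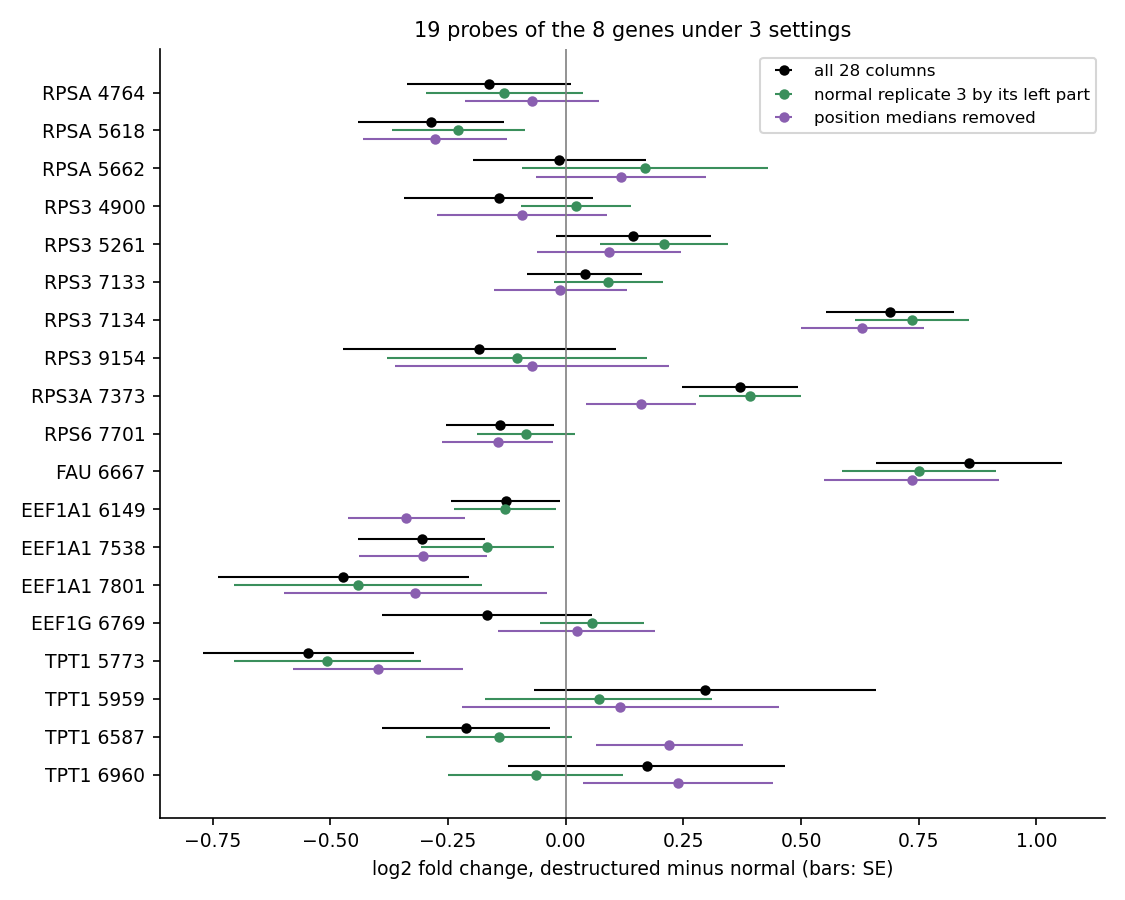
Log2 fold change, destructured minus normal, of each of the 19 probes (points, with SE bars), from all 28 columns, with normal replicate 3 by its left part, and with position medians removed. RPS3 7134, FAU 6667 and RPS3A 7373 stay to the right of 0 in all 3 settings, and TPT1 5773 lies farthest to the left, at -0.55 in the main comparison.

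RPS3 sits at the entry of the messenger RNA channel of the small subunit and also has a role in DNA repair. Its probe 7134 lay at 1.81, 1.98 and 2.32 in the lowest, median and highest normal pig, and at 2.22, 2.74 and 3.02 in destructured pigs. The groups overlapped by a single pair of pigs, normal replicate 3 at 2.32 and destructured replicate 6 at 2.22. The means were 2.01 ± 0.168 (SD, n = 7) and 2.70 ± 0.276 (SD, n = 7), a fold of 1.61 (log2 fold change 0.69, SE 0.14), and all 7 destructured pigs lay above the normal mean. In bulk muscle, a change in the number of cells of a type and a change in RNA per cell cannot be told apart. Both array parts gave similar values, 0.72 from the left and 0.66 from the right parts. With normal replicate 3 by its left part the log2 fold change was 0.74 (SE 0.12).

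The call on RPS3 7134 was less stable than its size. Its fold change was positive in all 28 alternative settings, from 0.58 to 0.86, and it passed in 12 of them. Leaving out any one of normal replicates 2, 4 and 5 or destructured replicates 1, 2, 3, 4, 5 and 7 ended the call, with log2 fold changes from 0.64 without destructured replicate 7 to 0.71 without destructured replicate 2. It was also lost on the deposited scale (0.86), with median centring (0.65), from the left (0.71) or right parts (0.67) normalized and fitted alone, with trend and robust variances (0.69), with position medians removed (0.63), and without both pigs that share a number (0.61).

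The other 4 RPS3 probes did not share this difference. RPS3 7133, the brightest of the gene and the neighbouring row of the table, lay at 2.34, 2.58 and 2.79 (lowest, median, highest) in normal and 2.20, 2.68 and 2.80 in destructured pigs. Its groups overlapped over nearly their whole range, with a log2 fold change of 0.040 (SE 0.12). RPS3 5261, among the dimmest 50% of probes by its mean level, stood at 0.14 (SE 0.16). With normal replicate 3 by its left part it was at 0.21 (SE 0.14). RPS3 4900 stood at -0.14 (SE 0.20). For RPS3 4900 the highest normal pig was again replicate 3, at 3.60 with the next at 2.45, and by its left part the fold change was 0.022 (SE 0.12). RPS3 9154, whose mean level lies among the dimmest 25% of probes, stood at -0.18 (SE 0.29). Its destructured replicate 5 was at 1.75 and every other destructured pig at -0.21 or below. In that pig the left part exceeded the right by 4.01, and without the pig the log2 fold change was -0.48. Averaged over its 5 probes, RPS3 lay at 1.57 ± 0.238 (SD, n = 7) for normal pigs, against 1.68 ± 0.185 (SD, n = 7) for the destructured group, a difference of 0.11 that is smaller than either SD. With normal replicate 3 by its left part the difference was 0.19, so its standing against the SDs depends on that pig. This mean has no test.

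**Figure D2:**
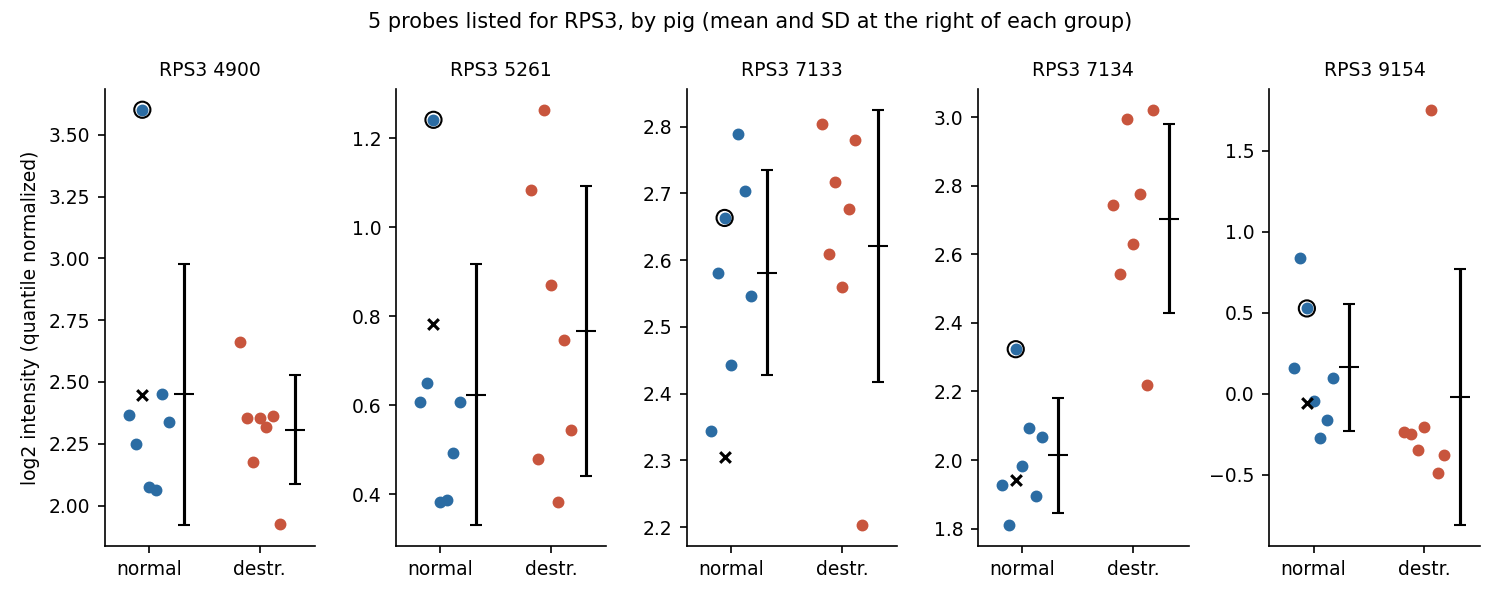
Log2 intensity of the 5 RPS3 probes in each pig (points), with mean and SD of each group, and with normal replicate 3 circled and its left part alone as a cross. In the panel of RPS3 7134 normal pigs lie at 1.81 to 2.32 and destructured pigs at 2.22 to 3.02, and a single pair of pigs overlaps.

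FAU encodes the ribosomal protein S30 fused to a ubiquitin-like protein. FAU 6667, its single probe, lay at -0.58, 0.14 and 0.51 (lowest, median, highest) in normal and at 0.33, 1.07 and 1.60 in destructured pigs. The lowest destructured pig, replicate 5, lay below normal replicate 5 at 0.51 and normal replicate 7 at 0.49, and the other 6 destructured pigs lay above every normal pig. Means were 0.14 ± 0.361 (SD, n = 7) and 0.99 ± 0.429 (SD, n = 7), a log2 fold change of 0.86 (SE 0.20) and the largest among the members, which did not pass. It was 0.79 from the left and 0.92 from the right parts. The lowest normal value, -0.58, belongs to replicate 3, where the left part exceeded the right by 1.47. By the left part of that pig the fold change was 0.75 with an SE of 0.16, and the probe passed. It also passed without normal replicate 3 (0.73) and without normal replicate 7 (0.91). In all 26 alternatives that kept the probe its sign was positive, and the filters on dim probes removed it because its mean level lies among the dimmest 25% of probes.

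RPS3A, a small subunit protein near the site where initiation factors bind, has 1 probe as well. RPS3A 7373 lay at 3.03, 3.31 and 3.65 (lowest, median, highest) in normal and at 3.63, 3.68 and 3.93 in destructured pigs. The destructured pigs were close together, with an SD of 0.105 against 0.240 in normal pigs, and the overlap came from normal replicate 3 alone. The log2 fold change was 0.37 (SE 0.12), with 0.35 from the left and 0.39 from the right parts, and it did not pass. With position medians removed it was 0.16 (SE 0.12), less than its main value by more than 1 SE, and with normal replicate 3 by its left part 0.39 (SE 0.11).

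RPSA, a small subunit protein also known as a laminin receptor, had negative fold changes on all 3 probes, but RPSA 4764 was positive on the deposited scale (0.10), and RPSA 5662 was positive in 13 of 26 alternatives, among them the deposited scale (0.29), median centring (0.071), the left parts only (0.27) and position medians removed (0.12). RPSA 5618, the brightest, lay at 1.03, 1.64 and 1.91 (lowest, median, highest) in normal and 0.98, 1.34 and 1.64 in destructured pigs, and the groups overlapped widely. Its log2 fold change was -0.29 (SE 0.16), negative in all 28 alternatives from -0.39 to -0.080, and it passed in none. With normal replicate 3 by its left part it was -0.23 (SE 0.14). RPSA 4764 stood at -0.16 (SE 0.17) and RPSA 5662 at -0.013 (SE 0.18), the latter at 0.17 with normal replicate 3 by its left part. For RPSA 5662 that left part read -2.15, below every other normal pig. RPS6 is the ribosomal protein phosphorylated by S6 kinase downstream of mTOR. RPS6 7701 lay at -0.88, -0.77 and -0.52 (lowest, median, highest) in normal and at -1.18, -0.89 and -0.64 in destructured pigs, with a log2 fold change of -0.14 (SE 0.11). With normal replicate 3 by its left part it was -0.084 (SE 0.10). On the deposited scale the sign was positive (0.15), with the median of all probes at 0.21.

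EEF1A1 delivers aminoacyl-tRNA to the ribosome, and its 3 probes had negative fold changes, but EEF1A1 6149 was positive on the deposited scale (0.11) and EEF1A1 7801 from the right parts only (0.23). EEF1A1 7538 lay at 2.32, 2.74 and 2.97 (lowest, median, highest) in normal and 1.99, 2.47 and 2.71 in destructured pigs, a log2 fold change of -0.31 (SE 0.13) that was negative in all 28 alternatives and passed in none. With normal replicate 3 by its left part it was -0.17 (SE 0.14), and that left part read 2.02, below every other normal pig. EEF1A1 7801, the brightest, lay at 3.06, 3.79 and 4.53 in normal and 2.35, 3.40 and 4.13 in destructured pigs, with a log2 fold change of -0.47 (SE 0.27). Its value differed by array part, at -1.17 from the left and 0.23 from the right parts. EEF1A1 6149 stood at -0.13 (SE 0.12), and with position medians removed at -0.34 (SE 0.12). Averaged over the 3 probes, EEF1A1 lay at 2.50 ± 0.133 (SD, n = 7) for normal pigs, against 2.19 ± 0.208 (SD, n = 7) for the destructured group, a difference of -0.30 that exceeds either SD. It was -0.25 with normal replicate 3 by its left part and -0.32 with position medians removed. Averaging lessens the spread where probes correlate negatively, and the pairs of these 3 probes had a median correlation of -0.34. EEF1A1 7801, whose parts gave -1.17 and 0.23, enters the mean with SDs of 0.533 in normal and 0.597 in destructured pigs. This mean has no test, and none of the 3 probes passed under any of the alternatives that kept it.

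EEF1G is a subunit of the complex that recharges EEF1A1 with GTP. EEF1G 6769 lay at 0.92, 1.20 and 2.75 (lowest, median, highest) in normal and 1.05, 1.21 and 1.43 in destructured pigs, so the medians nearly coincided. Its log2 fold change was -0.17 (SE 0.22), and the highest normal value, 2.75, was that of replicate 3, in which the parts differed by 3.14. By the left part of that pig the fold change was 0.056 (SE 0.11).

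TPT1 is a small, abundant protein with roles in growth and cell survival. Its 4 probes divided by sign, with 2 positive and 2 negative. TPT1 5773 lay at 1.36, 1.95 and 3.01 (lowest, median, highest) in normal and 0.96, 1.36 and 2.23 in destructured pigs, and its log2 fold change of -0.55 (SE 0.22) was the most negative among the members. It was negative in all 28 alternatives, from -0.79 to -0.32, and passed in none. The highest normal pig was replicate 3, and with its left part alone the value was -0.51 (SE 0.20). The highest destructured pig, destructured replicate 3, read 3.31 from its left and 1.15 from its right part. TPT1 6587 stood at -0.21 (SE 0.18), and at 0.22 (SE 0.16) with position medians removed. TPT1 5959, the brightest, lay at 2.92, 5.33 and 6.05 in normal and 4.63, 5.21 and 5.81 in destructured pigs, with a log2 fold change of 0.30 (SE 0.36). TPT1 6960 stood at 0.17 (SE 0.30). In both, replicate 3 was the lowest normal pig, at 2.92 and 1.58, and by its left part their values were 0.070 (SE 0.24) and -0.064 (SE 0.19). For TPT1 6960 the highest destructured pig, destructured replicate 1, read 3.03 from its left and 5.34 from its right part. The mean over the 4 TPT1 probes was 3.23 ± 0.308 (SD, n = 7) for normal pigs, against 3.16 ± 0.189 (SD, n = 7) for the destructured group. The difference was -0.073, and -0.16 with normal replicate 3 by its left part.

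**Figure D3:**
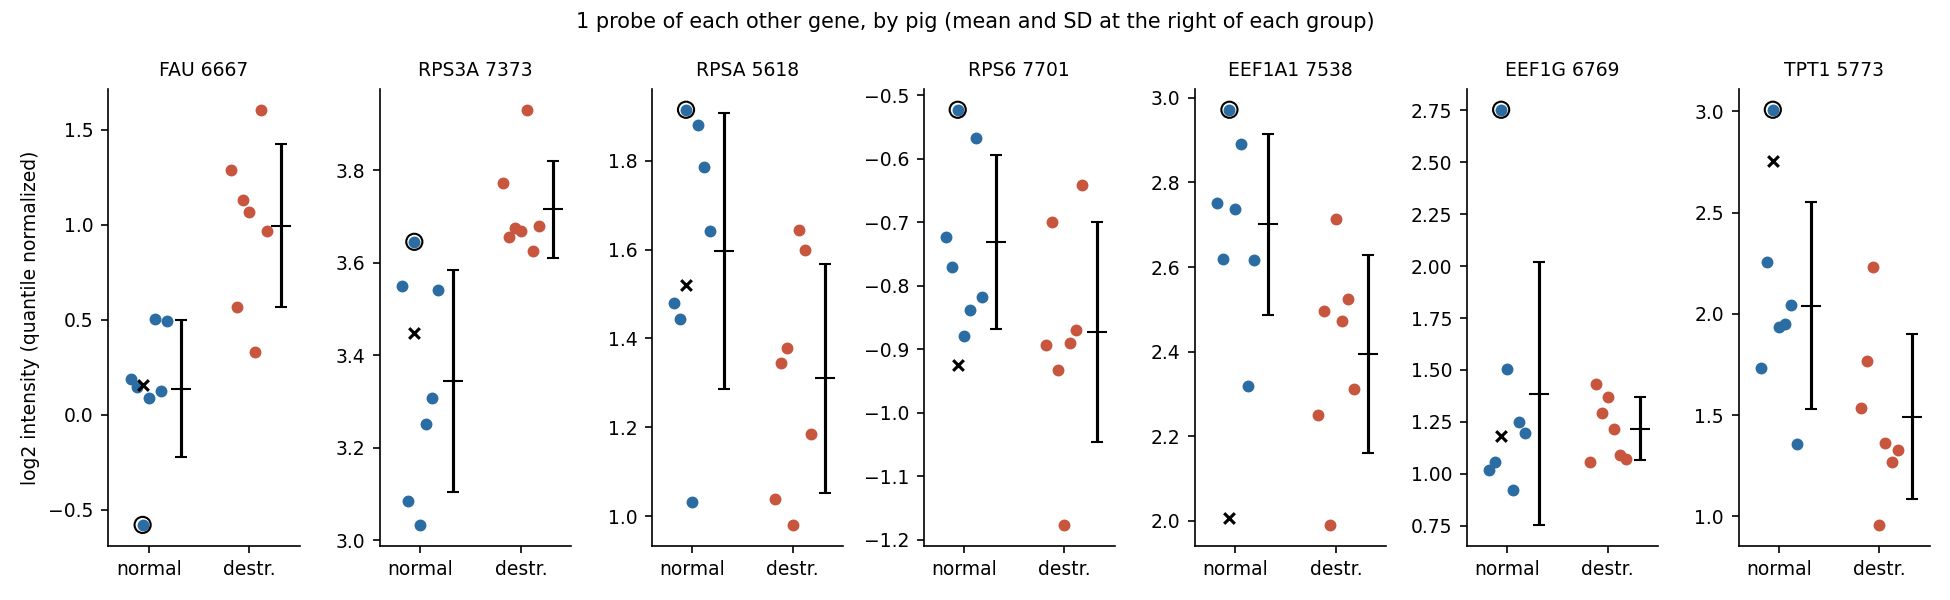
Log2 intensity by pig of the probe with the smallest p of each of the other 7 genes, with mean and SD of each group, normal replicate 3 circled and its left part alone as a cross. FAU 6667 and RPS3A 7373 are higher in most destructured pigs, the 7 destructured values of RPS3A 7373 lie between 3.63 and 3.93, and normal replicate 3 is an extreme normal pig in every panel.

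Of the 19 members 6 had opposite signs when the left and the right parts were taken alone. Among the 3 members of largest positive fold change the parts agreed closely, as given above. Parts differed most for EEF1A1 7801 and for TPT1 6960, at -0.30 from the left and 0.64 from the right parts. Within a pig, the median absolute difference between parts ran from 0.17 for RPS3 7134 to 0.75 for EEF1A1 7801. In 10 of the 19 members the largest difference between parts was in normal replicate 3.

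**Figure D4:**
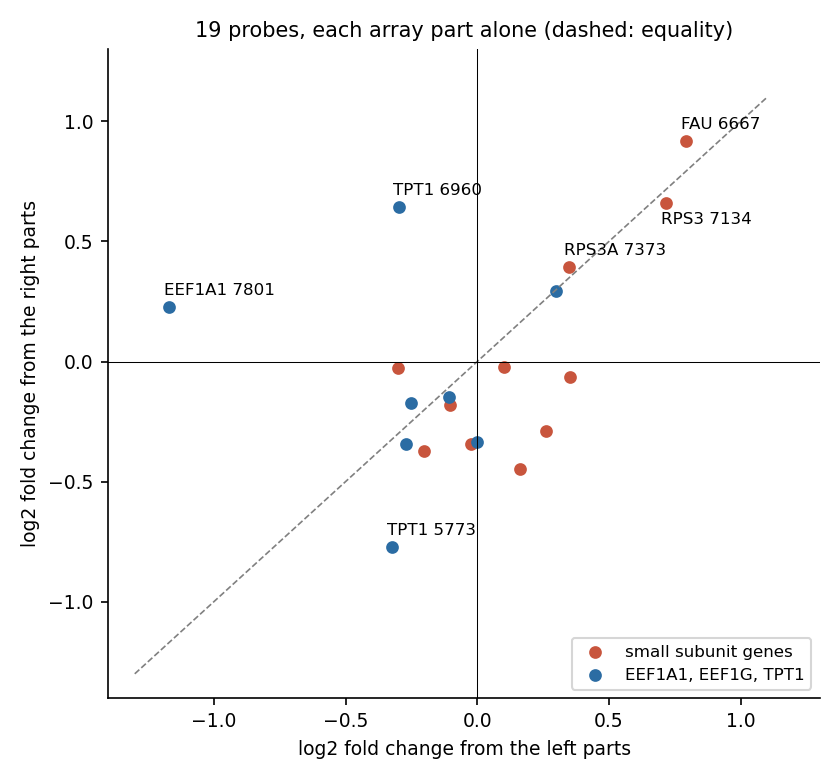
Log2 fold change of each member from the left parts (x axis) and the right parts (y axis), with the dashed line of equality. RPS3 7134 (0.72 and 0.66), FAU 6667 (0.79 and 0.92) and RPS3A 7373 (0.35 and 0.39) lie near the line, and EEF1A1 7801 (-1.17 and 0.23) and TPT1 6960 (-0.30 and 0.64) far from it.

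The fold changes of all probes differed by place in the table, whose rows repeat in a pattern of 12 columns, and the mean of a column ran from -0.19 to 0.19. In columns 8 to 12 and 1, where all probes averaged -0.11, 1 member was positive and 8 were negative. In columns 2 to 7, where all probes averaged 0.11, 6 were positive and 4 negative. The 3 members in column 1, which averaged -0.15 over 384 probes, were EEF1A1 7801, EEF1G 6769 and TPT1 5773, each with a negative fold change. RPS3 7134 lies in column 6, with a mean of 0.13, FAU 6667 in column 7, with 0.19, and RPS3A 7373 in column 5, with 0.064. Less the mean of their column, these 3 were at 0.56, 0.66 and 0.31. With position medians removed, 9 members were positive and 10 negative, their median was -0.012, and none passed: RPS3 7134 was at 0.63 (SE 0.13) and FAU 6667 at 0.73 (SE 0.19). With normal replicate 3 by its left part as well, RPS3 7134 was at 0.65 (SE 0.12) and passed, and FAU 6667 was at 0.69 (SE 0.17) and did not. What part position has in the remaining differences was not tested.

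**Figure D5:**
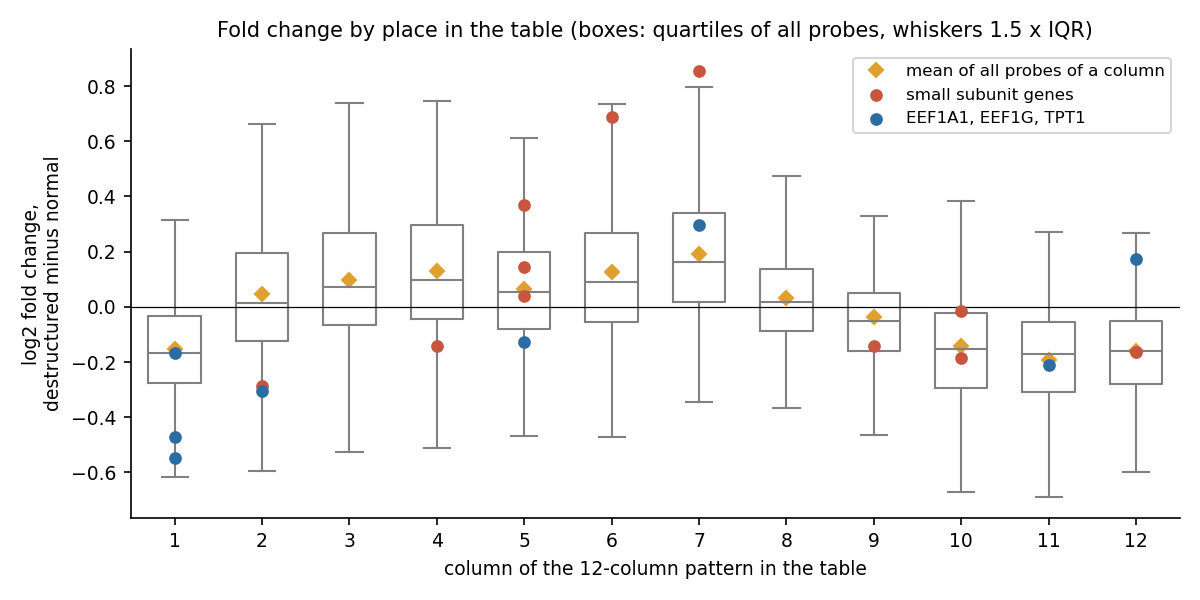
Log2 fold change by column of the 12-column pattern in the table, with boxes for all probes, diamonds for the mean of the 384 probes of a column, and dots for the members. Column means run from -0.19 in column 11 to 0.19 in column 7, and RPS3 7134 in column 6 and FAU 6667 in column 7 lie well above the mean of their columns.

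Probes of 1 gene did not follow each other from pig to pig. Over the 22 pairs of probes within RPSA, RPS3, EEF1A1 and TPT1, the Pearson correlation of deviations from the group means had a median of -0.036 over 14 pigs and -0.0095 over the 13 pigs without normal replicate 3. The highest was 0.71, between TPT1 5959 and TPT1 6960, and the highest without that pig was 0.45, between RPS3 4900 and RPS3 7133. These pairs share the arrays and their scaling, and the values are a description. Between the left and right parts of a pig, the correlation fitted over all probes, given the group, was itself only 0.140. Low values between probes therefore do not test the listed names. Among the other 508 singly named probes, those most like RPS3 7134 over the 14 pigs were CALM3 6946 (r = 0.80), GAPDH 6957 (0.76) and TNNC2 8534 (0.69), and those most like FAU 6667 were TNNT3 6977 (0.75), CKM 6100 (0.69) and PPARD 5914 (0.66). None of these encodes a ribosomal protein, but beyond the members such proteins had few of the 508 probes, 20 for the small and 14 for the large subunit. Without normal replicate 3 the correlations ran from 0.53 to 0.75. Each was picked as among the highest of 508 and was not tested, so its size alone does not show a relation.

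Other genes of the ribosome and of translation are given for comparison. Over all probes 0.651% passed and 601 of 4608 had an unadjusted p under 0.05, so few or no calls in lists of this size are near the background share. Of 29 further small subunit proteins listed, 9 were measured by 20 probes, 5 positive and 15 negative, whose median lay at -0.066, 0 passing (limma, 0 at an unadjusted p under 0.05). RPS15 4683 (0.43, SE 0.27) and RPS21 8532 (-0.39, SE 0.27) were the extremes. Of 48 large subunit proteins 8 were measured by 14 probes, 5 positive and 9 negative, with a median of -0.096 and 0 passing (limma, 3 at an unadjusted p under 0.05), from RPL10A 6515 (-0.58, SE 0.30) to RPL19 5118 (0.51, SE 0.20). The initiation factor EIF4A2, an RNA helicase, was the single further translation factor measured (-0.090, SE 0.14), and none of 7 other listed messages with a pyrimidine tract was measured. Over the 11 probes of the 5 small subunit members the median was -0.013, with 5 positive and 6 negative, and over the 8 probes of EEF1A1, EEF1G and TPT1 it was -0.19, with 2 positive and 6 negative. Among markers of other cell types, the 3 fibroblast and matrix genes measured, of 8 listed, were all negative with a median log2 fold change of -0.34 (limma, 0 passing, 0 at an unadjusted p under 0.05), at a mean level of 1.81 to 3.19 in normal and 1.75 to 2.30 in destructured pigs. The 2 adipocyte genes measured, of 5 listed, had positive log2 fold changes, FABP4 8934 at 0.28 (SE 0.15) and PPARG 8931 at 0.064 (SE 0.19), with 0 passing (limma, 0 at an unadjusted p under 0.05), and a mean level of 1.72 to 2.69 in normal and 2.17 to 2.47 in destructured pigs. One endothelial and 1 immune marker gene were measured, and no blood or nerve marker was. The part of these cell types in the differences above was not tested.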

How the data were processed

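The deposited values are linear spot intensities of 4608 probes in 28 columns, between 0.0393 and 443. The authors quantified them from phosphor images with BZscan, per the series' design text. The sources used here do not say whether they were divided by the signal of an earlier oligonucleotide hybridisation or corrected for background. All columns were used. Intensities were taken to log2, quantile normalized over the 28 columns and averaged over the left and right part of each pig. The contrast of destructured and normal pigs was fitted with limma 3.58.1 in R 4.3.3 (lmFit, eBayes, group as the only term), with Benjamini-Hochberg adjustment over all 4608 probes. The fit was checked on simulated data with independent normal noise for each probe. That simulation held no deviant array part, position pattern or shared animal, so it does not bear on how the calls depend on these.

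Symbols are those of an old platform annotation, and the Entrez identifiers of all 19 member probes matched the same symbol in the RefSeq gene table. Members and lists were chosen with earlier results of these data known. Every member is accounted for, the probe of smallest p and the brightest probe of each gene in full. Likeness was ranked by Pearson correlation of deviations from group means. The number of arrays limits precision. A p-value sets the group difference against the variation between pigs, which eBayes adjusts with the help of all probes. It takes the 14 as separate animals, which the shared pig number leaves unsettled. Figures used matplotlib 3.10.9 in Python 3.11.15.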

Additional observations from a re-analysis of the deposited data

Results flagged for a closer look

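In a group of 7 pigs, a pig was noted if it lay farther from its neighbour than 0.568 of the whole range. This occurred in 7 of 40 groups, and chance gives about 1 in 20 for a single group. The groups hold the same pigs and are not independent, so no excess over chance is read from this count. Normal replicate 3 was such a pig for RPS3 4900 (3.60, next 2.45), RPS3 5261 (1.24, next 0.65), FAU 6667 (-0.58, next 0.087) and EEF1G 6769 (2.75, next 1.50), and for the correlation of its array parts (0.380, next 0.868). Destructured replicate 7 was low for RPS3 7133 (2.20, next 2.56). Destructured replicate 5 was high for RPS3 9154 (1.75, next -0.21).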

How the results depend on the processing

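Over all probes, 30 passed in the main comparison, 1 of them a member. The counts were 2 probes and 0 members without normalization, 6 and 0 after centring on the median, 13 and 0 from the left parts, 1 and 0 from the right parts, 6 and 0 with trend and robust variances, 9 and 0 with position medians removed, and 3 and 0 without both pigs of 1 number. They were 49 and 1 without the dimmest 25% of probes, 56 and 1 without the dimmest 50%, 53 and 1 with 1 added before log2, and 18 and 1 with position medians removed and normal replicate 3 by its left part. More members passed with normal replicate 3 by its left part (135 probes, 2 members), with array weights (129 and 2) and at a threshold of 0.1 (111 and 2). Leaving out 1 pig gave from 2 probes, when destructured replicate 3 was left out, to 84, when normal replicate 3 was, and 0 to 2 members, and the count of probes stayed near the main one, at 26 and 28, without normal replicate 6 and without destructured replicate 6. The causes were not tested. The replicate numbers in the titles mark array parts. With the part as a replicate block over 28 columns and the pig as a random block, 107 probes and 3 members passed (RPS3 7134, RPS3A 7373 and FAU 6667). There the consensus correlation within a pig was 0.140, so parts counted almost as separate samples. Apart from the 1 pig number that both groups share, no label pairs pigs across the groups. RPS3A 7373 also passed with array weights (0.43). No member that passed in any setting changed sign. Signs of uncalled members changed most often for RPSA 5662 (13 of 26 alternatives) and EEF1G 6769 (6 of 27). No background signal came with the values, so its effect on dim probes such as FAU 6667 and RPS6 7701 was not judged.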

Other observations

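The array parts of EEF1A1 7801 differed in opposite directions in the groups, a pattern singled out after its values were seen. The left part was brighter than the right in 6 of 7 normal pigs and in 1 of 7 destructured pigs, with a mean left-minus-right difference of 0.78 ± 0.789 (SD, n = 7) and -0.62 ± 0.495 (SD, n = 7) on the log2 scale. It was not tested.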
